A study of Homo sapiens with 8 samples.

Results

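The genes described here are 34 members of the integrated stress response and the unfolded protein response, chosen by symbol from a written list. A member had to be a named row of the deposited table whose values averaged 10 or more across the 8 libraries. All 34 symbols were found and passed, of 60240 genes in the table and 17534 with a mean of at least 10. The lowest mean among them was that of STC2, at 33.4. They were grouped into 18 targets of the transcription factor ATF4, 8 chaperone and degradation genes of the endoplasmic reticulum (ER), and 8 stress sensors and core regulators. The last group was also given CBS, an enzyme gene that is neither sensor nor regulator. All groups used the HL-60 line, derived from a human promyelocytic leukaemia and labelled as wild type. The DMSO group received solvent, the decitabine group 100 nM decitabine on days 0, 1 and 2, the RG3039 group 2 µM RG3039 on day 0, and the combination group both. Each group held 2 libraries of RNA taken at 72 h. Decitabine is a nucleoside analogue that traps DNA methyltransferases once it is incorporated, and RG3039 is a quinazoline inhibitor of the mRNA decapping scavenger enzyme DCPS.

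In the integrated stress response, kinases such as PERK (EIF2AK3) and GCN2 (EIF2AK4) phosphorylate the initiation factor eIF2, which lowers general translation and raises translation of ATF4 mRNA. ATF4 then activates genes for amino acid synthesis and uptake, redox balance and, under lasting stress, cell death. The unfolded protein response of the ER adds the sensor IRE1 (ERN1), which splices XBP1 mRNA, and the sensor ATF6, and these raise chaperones and the degradation of misfolded proteins. ATF4 and XBP1 are controlled largely after transcription, so their mRNA levels as measured here do not report protein or splicing. Secretory and granule-forming cells, such as the promyelocytes that HL-60 resembles, rely on ER folding capacity.

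Each library held an estimated 20711800 to 40948100 reads, and values are read counts normalised between libraries. The labels say that wells were seeded in duplicate and not whether the cultures were independent, so p-values measure the spread between these samples, which may be technical. The promyelocyte markers MPO, ELANE, PRTN3, AZU1, CTSG and CD33 were all above 0 in all 8 libraries, as the HL-60 label implies. Their summed value was 155613 to 195063 in the DMSO and decitabine libraries, 101820 and 116936 in the RG3039 pair, and 84211 and 94241 in the combination pair. MPO made up most of that sum, at a mean value of 111615, and the next highest, ELANE, averaged 12374. Of the 6, decitabine gave 1 called higher (1.74% of all genes were), and RG3039 and the combination each gave 3 called lower (3.59% and 12.7% of all genes were). The summed value of 10 myeloid maturation markers ran the other way, at 67359 and 76666 (DMSO), 89281 and 91387 (decitabine), 128234 and 122178 (RG3039) and 150899 and 170933 (combination), with none at 0. LYZ, S100A8 and S100A9 made up most of that sum, at mean values of 52224, 24736 and 23477, and the next highest, CYBB, averaged 10308. Of the maturation markers, decitabine gave 2 called higher, RG3039 gave 6 and the combination gave 9 of 10. In these comparisons 1.74%, 4.53% and 11.4% of all genes tested were called higher. The sum of 10 genes listed as markers of lymphoid, epithelial, stromal and endothelial cells was 728 to 1432 in the DMSO and decitabine libraries. It was 2016 and 2245 in the RG3039 pair, and 4327 and 4542 in the combination pair. MS4A1 was at 0 in all 8 libraries and COL1A2 in 7. PECAM1 and KRT18 made up most of that sum, at mean values of 1579 and 388 over the 8 libraries, and the next highest, CD79A, averaged 67.7. Of the 8 of these genes tested, decitabine gave 0 called higher, RG3039 gave 1 and the combination gave 5, against 1.74%, 4.53% and 11.4% of all genes. Whether cells of these types were present, or the HL-60 cells themselves held this RNA, was not tested. The part of this shift in any result below was not tested. In such bulk RNA, fewer cells of a type and less RNA per cell cannot be told apart.

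Short stretches of promoter are shown because they carry the sites through which these responses are known to act. RefSeq windows of 300 bases (250 before to 50 after the start, GRCh38.p14) were at hand for 30 of the 34 members, all except ALDH1L2, NUPR1, PSPH and SHMT2. They were searched on both strands for the C/EBP-ATF response element, letters TGATGNAA, which ATF4 dimers bind. The same was done for the ER stress element, the letters CCAAT and CCACG with 9 free bases between them, which ATF6 and XBP1 use with NF-Y. No member held both motifs. The first element was present in 5 of 30 members (16.7%) (counting a gene where any of its windows matched) against 1270 of 35116 windows overall (3.62%), namely ASNS, CHAC1, CEBPG, HERPUD1 and PPP1R15B. The second was present in 3 of 30 members (10%) against 27 windows overall (0.0769%), namely HSPA5, HSP90B1 and XBP1. Each line below gives 25 bases on either side of the match on the gene's own strand, 5′ to 3′, with the match in capitals. A match describes letters and not binding.
ASNS, chr7:97872444-97872501, minus strand, match starting at -68: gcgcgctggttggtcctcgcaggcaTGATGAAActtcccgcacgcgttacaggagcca
CHAC1, chr15:40953237-40953294, plus strand, match starting at -209 and read on the opposite strand: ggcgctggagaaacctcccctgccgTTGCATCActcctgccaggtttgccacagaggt
CEBPG, chr19:33374046-33374103, plus strand, match starting at -42: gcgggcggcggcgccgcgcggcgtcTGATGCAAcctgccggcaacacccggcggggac
HERPUD1, chr16:56931941-56931998, plus strand, match starting at -176 and read on the opposite strand: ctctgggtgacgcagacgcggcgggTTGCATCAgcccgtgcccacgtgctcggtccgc
HSPA5, chr9:125241366-125241434, minus strand, match starting at -66: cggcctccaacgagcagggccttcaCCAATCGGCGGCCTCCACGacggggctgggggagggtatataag
XBP1, chr22:28800578-28800646, minus strand, match starting at -52: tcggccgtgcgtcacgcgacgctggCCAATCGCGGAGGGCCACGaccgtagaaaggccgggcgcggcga

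With the combination ASNS and CHAC1 were called higher and CEBPG lower, and HERPUD1, which holds the same element, was not called. Of the members with the ER stress element, XBP1 was called lower and HSPA5 was not called. The HSP90B1 window held 2 matches of the ER stress element, starting at -194 and -89, and HSP90B1 was called in no comparison.

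RG3039 and the combination moved a subset of the ATF4 targets in both directions, decitabine alone moved 1 of them, and the ER chaperones stayed largely without calls. A gene was called where limma's adjusted p was under 0.05 over all 17534 genes tested. With decitabine against DMSO 1 of the 34 members was called, higher (2.94%), against a background of 2.14% of all genes tested (1.74% higher and 0.405% lower). With RG3039 5 members were called higher and 2 lower (20.6%), against 8.12% of all genes (4.53% higher and 3.59% lower). With the combination 7 were called higher and 5 lower (35.3%), against 24.1% of all genes (11.4% higher and 12.7% lower). In all, 12 members were called in at least 1 of the 7 comparisons made and 22 in none. The 12 were 35.3% of the members, against 26.6% of all genes called in at least 1 comparison, and comprised 8 of 18 ATF4 targets, 1 of 8 ER chaperone genes and 3 of 8 sensors and regulators. The 3 comparisons with DMSO share its libraries, and leaving out 1 library ended many calls, as given beside each gene.

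**Figure D1:**
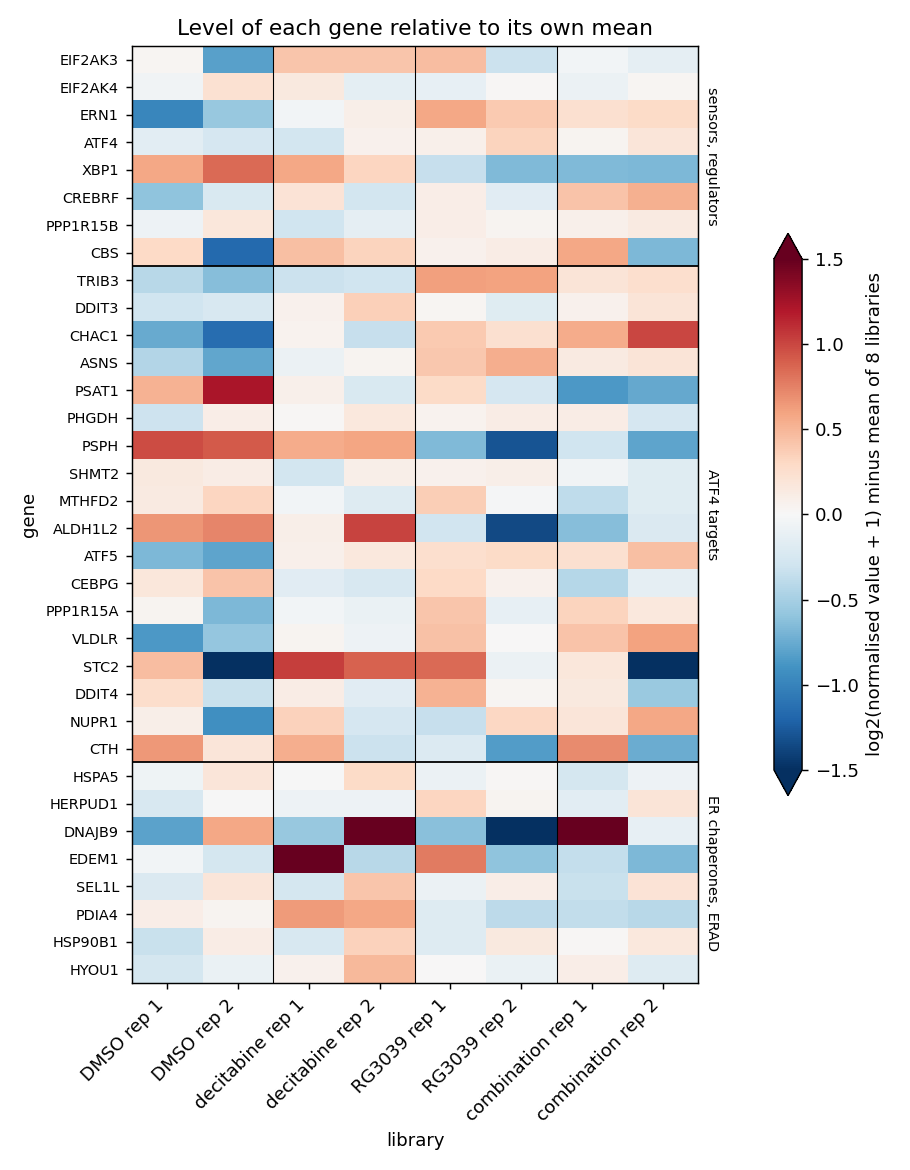
Level of each of the 34 genes (rows, grouped by role) in each of the 8 libraries (columns), as log2(normalised value + 1) minus the gene's mean over the libraries, with colours saturating at 1.5. ERN1, TRIB3, ASNS and ATF5 were lowest in the DMSO libraries, PSPH and XBP1 were lowest with RG3039 and the combination, and DNAJB9 and EDEM1 differ widely within pairs.

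Among the sensors, the eIF2 kinase genes EIF2AK3 and EIF2AK4 did not pass the test and ERN1 did. ERN1 encodes IRE1, the ER kinase and nuclease that splices XBP1 mRNA. With identifiers and positions from GENCODE 29 on GRCh38, ERN1 (ENSG00000178607.16, chr17:64039142-64130819, minus strand) had a normalised value of 156 and 209 (DMSO), 301 and 329 (decitabine), 462 and 406 (RG3039) and 366 and 379 (combination). Every treated library lay above both DMSO libraries. The log2 fold change against DMSO was 1.26 ± 0.23 (± SE, as throughout, on the scale of log2(value + 1)) with RG3039 (limma adjusted p = 0.0108) and 1.04 ± 0.23 with the combination (adjusted p = 0.0101). With decitabine it was 0.80 ± 0.23, which did not pass (adjusted p = 0.112). The RG3039 call was lost without either RG3039 library (adjusted p up to 0.0835 over the 8 omissions of 1 library) and with only RG3039 and DMSO in the fit. The combination call was lost without DMSO replicate 1 or either combination library (up to 0.0618).

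The target of that nuclease moved the other way. XBP1 encodes the transcription factor that drives ER chaperone and secretory genes once its mRNA is spliced. XBP1 (ENSG00000100219.16, chr22:28794555-28800597, minus strand) read 3525 and 4248 (DMSO), 3529 and 2939 (decitabine), 1852 and 1491 (RG3039) and 1482 and 1476 (combination). All 4 libraries that received RG3039 lay below all 4 that did not. XBP1 fell with RG3039 (log2 fold change -1.22 ± 0.17, limma adjusted p = 0.00311) and with the combination (-1.39 ± 0.17, adjusted p = 0.000599). Both calls were kept without each of the 8 libraries in turn. With decitabine alone the log2 fold change was -0.26 ± 0.17 (adjusted p = 0.457). The 3′ tags count spliced and unspliced XBP1 together.

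EIF2AK3, the gene of PERK, read 331 and 183 (DMSO), 432 and 433 (decitabine), 448 and 259.7 (RG3039) and 315 and 295 (combination). The DMSO pair and the RG3039 pair each spanned a wide range, and the decitabine pair lay above both DMSO and the combination and within the RG3039 range. Its largest log2 fold change against DMSO was 0.81 ± 0.33 with decitabine (limma adjusted p = 0.241). EIF2AK4, the gene of the amino acid sensor GCN2, lay between 1150.0 and 1490.3 in all 8 libraries, with log2 fold changes of -0.09 ± 0.18, -0.13 ± 0.18 and -0.11 ± 0.18 with decitabine, RG3039 and the combination.

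ATF4 mRNA itself was not called in any comparison. Its values were 12711 and 11842 (DMSO), 11691 and 14794 (decitabine), 14903 and 17797 (RG3039) and 14499 and 16009 (combination). The RG3039 and combination libraries lay above both DMSO libraries, and decitabine spanned them. The log2 fold changes of ATF4 were 0.10 ± 0.16, 0.41 ± 0.16 and 0.31 ± 0.16 in that order (limma adjusted p = 0.781, 0.152 and 0.183). Of the other regulators, CREBRF (ENSG00000164463.12, chr5:173056352-173139284, plus strand), a regulator of the CREB3 family of ER stress factors, read 589 and 762 (DMSO), 1031 and 738 (decitabine), 954 and 796 (RG3039) and 1203 and 1295 (combination). Both combination libraries exceeded the other 6. CREBRF rose with the combination by 0.90 ± 0.22 (adjusted p = 0.0155), a call lost without DMSO replicate 1 or either combination library (up to 0.0885) and without the mean-variance trend. With each single drug its log2 fold change was 0.38 and did not pass.

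PPP1R15B, which directs a phosphatase to eIF2 at rest, lay between 926 and 1277 and was not called. CBS, which makes cystathionine from homocysteine and serine, ranged from 148 to 499.6, with the DMSO libraries at 409 and 148 and the combination libraries at 499.6 and 208. Both pairs spread nearly as widely as the whole set. Its near-identical copy CBSL had a mean value of 306 in the table, so reads may have been split between them and the level of either is uncertain.

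Among the ATF4 targets that rose, the transcription factor gene ATF5, itself a stress factor, was called with each of the 3 treatments. ATF5 (ENSG00000169136.11, chr19:49928702-49933935, plus strand) read 2590.2 and 2391 (DMSO), 4341 and 4626 (decitabine), 4931 and 5024 (RG3039) and 4876 and 5626 (combination). Every treated library lay far above both DMSO libraries. The log2 fold change was 0.85 ± 0.14 with decitabine (limma adjusted p = 0.0155), 1.00 ± 0.14 with RG3039 (adjusted p = 0.00259) and 1.07 ± 0.14 with the combination (adjusted p = 0.00066). No other member was called in all 3 of these comparisons. The calls with RG3039 and the combination were kept without each library. The decitabine call was lost without DMSO replicate 2 or either decitabine library (up to 0.110), without the trend, and with only decitabine and DMSO in the fit. ATF5 overlaps exons of NUP62 on the opposite strand, and the sources used here do not say whether reads were counted by strand. NUP62 had log2 fold changes of -0.48, -0.40 and -0.65 with the 3 treatments, opposite in sign to those of ATF5.

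TRIB3 (ENSG00000101255.11, chr20:362835-397559, plus strand), a pseudokinase that feeds back on ATF4 and on AKT, had values of 602 and 515 (DMSO), 642 and 652 (decitabine), 1233 and 1221 (RG3039) and 919.7 and 955 (combination). The RG3039 libraries were the highest, the combination libraries came next, and decitabine lay just above DMSO. TRIB3 rose by 1.14 ± 0.17 with RG3039 (limma adjusted p = 0.00364), a call kept without each library. With the combination it rose by 0.75 ± 0.17 (adjusted p = 0.0103), a call lost without DMSO replicate 2 or either combination library (up to 0.0658). With decitabine the log2 fold change was 0.22 ± 0.17 (adjusted p = 0.532).

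ASNS (ENSG00000070669.17, chr7:97852118-97872542, minus strand), asparagine synthetase, showed the same order of groups. It read 1395 and 1101 (DMSO), 1787 and 1956 (decitabine), 2499.8 and 2769.8 (RG3039) and 2077 and 2159 (combination), with no overlap between any groups. ASNS rose by 1.09 ± 0.16 with RG3039 (limma adjusted p = 0.00413), which held without each library, and by 0.77 ± 0.16 with the combination (adjusted p = 0.00812), which was lost without combination replicate 2 (0.0565). The change with decitabine was 0.59 ± 0.16 (adjusted p = 0.0975).

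CHAC1 (ENSG00000128965.13, chr15:40952962-40956519, plus strand), which degrades glutathione, was highest with the combination. Its values were 57.5 and 43.8 (DMSO), 101 and 76.9 (decitabine), 129 and 116 (RG3039) and 144 and 197 (combination). The 4 groups did not overlap. CHAC1 rose by 1.73 ± 0.34 with the combination (limma adjusted p = 0.00606), the largest positive change among the members in that comparison, and the call was lost without combination replicate 2 (0.0575). With RG3039 the change was 1.27 ± 0.34, just outside the threshold (adjusted p = 0.052), and with decitabine it was 0.80 ± 0.34 (adjusted p = 0.26).

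VLDLR (ENSG00000147852.16, chr9:2621834-2660053, plus strand), a lipoprotein receptor gene that ATF4 activates, read 327 and 397 (DMSO), 613 and 563 (decitabine), 808 and 596 (RG3039) and 804 and 903 (combination). All 6 treated libraries exceeded both DMSO libraries, and the RG3039 range reached into those of decitabine and the combination. VLDLR rose by 1.24 ± 0.21 with the combination (limma adjusted p = 0.00293), which held without each library. It rose by 0.94 ± 0.21 with RG3039 (adjusted p = 0.0264), which was lost without either DMSO library, RG3039 replicate 1 or combination replicate 2 (up to 0.167), without the trend, and with only RG3039 and DMSO in the fit. The antisense gene VLDLR-AS1, at a mean value of 78.6, overlaps its exons.

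**Figure D2:**
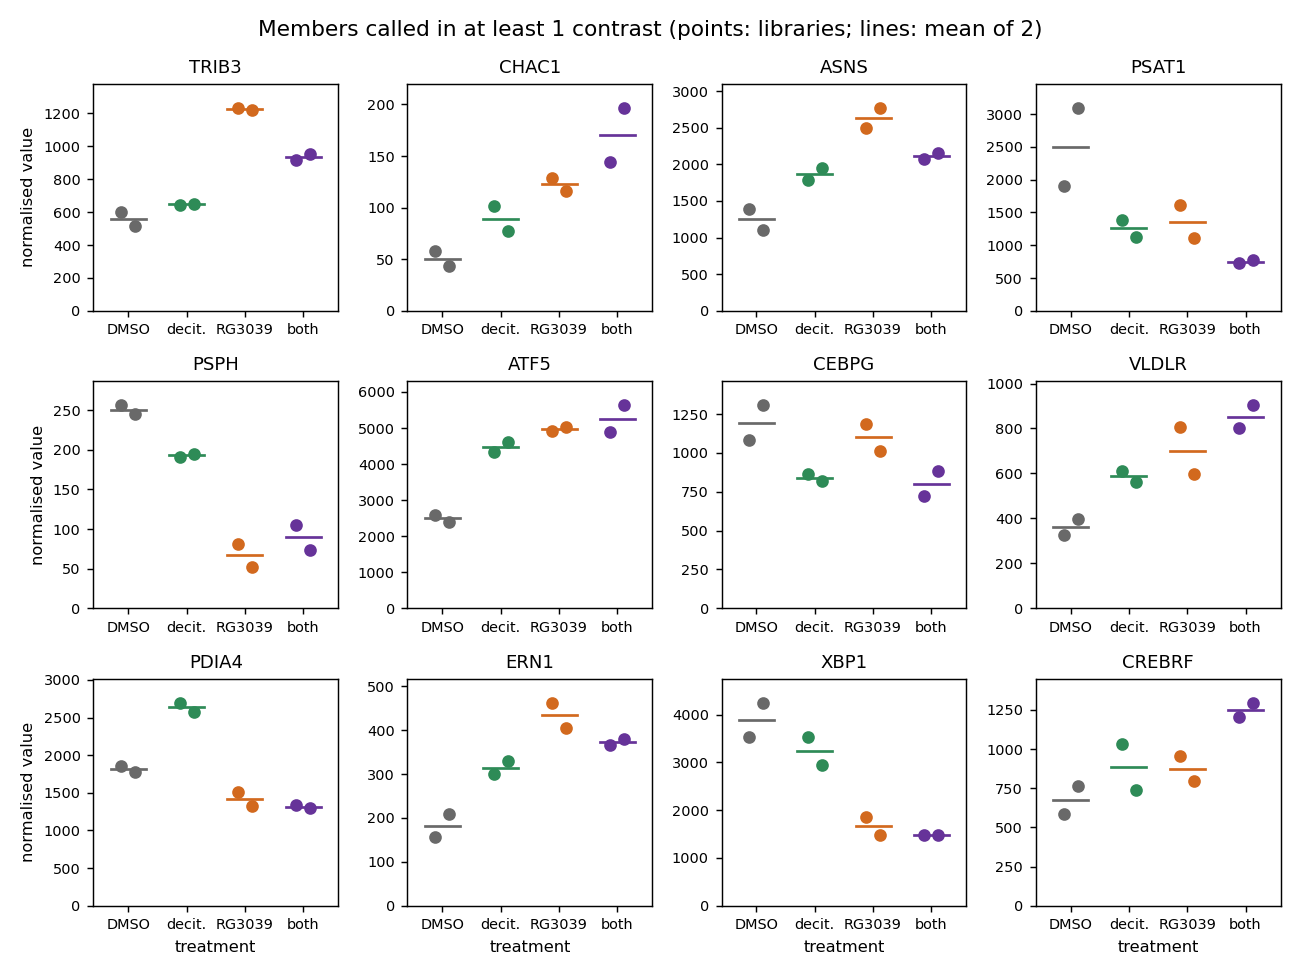
Normalised value (vertical axis, from 0) of each of the 12 members called in at least 1 comparison, by treatment (decit., decitabine; both, the combination). Points are libraries and lines are means of 2; TRIB3 and ASNS peak with RG3039, PSAT1 is lowest with the combination, and XBP1 and PSPH are low wherever RG3039 was given.

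None of the 3 serine synthesis genes was called higher. PSPH was called lower with RG3039, where 3.59% of all genes were. PSAT1 and PSPH were called lower with the combination, where 12.7% of all genes were. PSAT1 (ENSG00000135069.14, chr9:78297143-78330093, plus strand), the aminotransferase of serine synthesis, read 1902 and 3094 (DMSO), 1387 and 1124 (decitabine), 1612 and 1111 (RG3039) and 724 and 778 (combination). Every treated library was below both DMSO libraries and the combination pair was the lowest. PSAT1 fell with the combination (log2 fold change -1.69 ± 0.26, limma adjusted p = 0.00171), a call kept without each library. The single drugs gave -0.96 ± 0.26 (decitabine, adjusted p = 0.0926) and -0.86 ± 0.26 (RG3039, adjusted p = 0.0773), neither called.

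PSPH (ENSG00000146733.14, chr7:56011051-56051604, minus strand), the phosphatase of the last step to serine, had values of 256 and 246 (DMSO), 191 and 195 (decitabine), 81.6 and 52.2 (RG3039) and 105 and 74.1 (combination). The 4 libraries with RG3039 were all lower than the 4 without. PSPH fell with RG3039 (log2 fold change -1.92 ± 0.33, limma adjusted p = 0.00766), lost without RG3039 replicate 2 (0.0592) and with only RG3039 and DMSO in the fit. It also fell with the combination (-1.50 ± 0.33, adjusted p = 0.00938), lost without combination replicate 2 (0.0707). PHGDH, the first enzyme of serine synthesis, lay between 722 and 999.7 in all libraries and had log2 fold changes of 0.20 ± 0.20, 0.19 ± 0.20 and 0.04 ± 0.20 with decitabine, RG3039 and the combination.

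The mitochondrial one-carbon genes that use serine were not called. SHMT2, which passes the carbon of serine to folate, lay between 3189 and 4294. MTHFD2, the next enzyme, read 3819 and 4348 with DMSO and 2677 and 3065 with the combination, without overlap, and its log2 fold change of -0.51 ± 0.17 lay just outside the threshold (limma adjusted p = 0.0551). ALDH1L2, the mitochondrial formyl-folate dehydrogenase, read 118 and 123 (DMSO), 78.6 and 150.3 (decitabine), 60.2 and 28.2 (RG3039) and 46.8 and 63.2 (combination). All 4 libraries with RG3039 were the lowest, and the log2 fold change of ALDH1L2 was -1.52 ± 0.47 with RG3039 (adjusted p = 0.0868) and -1.13 ± 0.47 with the combination (adjusted p = 0.117). Its opposite-strand neighbour C12orf45, whose exons overlap, had log2 fold changes of -1.69 and -2.22 in these comparisons.

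CEBPG (ENSG00000153879.9, chr19:33373330-33382686, plus strand), the C/EBP factor that pairs with ATF4, read 1086 and 1306 (DMSO), 862 and 817 (decitabine), 1189 and 1013 (RG3039) and 719.8 and 884 (combination). Decitabine and the combination lay below DMSO, and RG3039 overlapped it. CEBPG fell with the combination (log2 fold change -0.58 ± 0.19), narrowly past the threshold (limma adjusted p = 0.0492). The call was lost without each of the 8 libraries (up to 0.275), without the trend, with no filter on low values, with quantile normalisation and with only the 2 groups in the fit.

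The remaining ATF4 targets gave no call in any comparison. DDIT3, the gene of the death-linked factor CHOP, read 345 and 357 (DMSO), 442 and 543 (decitabine), 433 and 372 (RG3039) and 442 and 484 (combination). All 6 treated libraries lay above DMSO, with log2 fold changes of 0.48 ± 0.21, 0.19 ± 0.21 and 0.40 ± 0.21 (limma adjusted p = 0.261, 0.629 and 0.196). DDIT3 overlaps MARS1 on the opposite strand, whose log2 fold change with the combination was -0.86.

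PPP1R15A, the stress-induced partner of the eIF2 phosphatase (GADD34), read 707 and 429 (DMSO), 669 and 638 (decitabine), 914 and 631 (RG3039) and 862 and 763 (combination). The range of the DMSO pair covered that of decitabine and part of that of RG3039. DDIT4, an inhibitor of mTORC1, lay between 280.3 and 592. NUPR1, a small stress-induced chromatin protein, lay between 61.3 and 176. CTH, which makes cysteine from cystathionine, lay between 31.2 and 93.3, with 93.3 and 33.5 in the combination pair alone. STC2, a secreted stress glycoprotein, read 37.8 and 7.55 with DMSO and 30.8 and 8.42 with the combination against 56.6 and 50.9 with decitabine and 49.7 and 25.5 with RG3039. The standard error of its changes was 0.84 on the log2 scale.

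PDIA4 was the only ER chaperone member called. It encodes a protein disulphide isomerase that forms and rearranges disulphide bonds. PDIA4 (ENSG00000155660.11, chr7:149003062-149028641, minus strand) read 1856 and 1772 (DMSO), 2695 and 2578 (decitabine), 1516 and 1319.8 (RG3039) and 1341 and 1295 (combination). Decitabine gave the highest pair, DMSO came next, and all 4 libraries with RG3039 were lower. Against DMSO the log2 fold change was 0.54 ± 0.15 with decitabine (limma adjusted p = 0.0932), -0.36 ± 0.15 with RG3039 (adjusted p = 0.18) and -0.46 ± 0.15 with the combination (adjusted p = 0.0469). The last was the only call and was lost without each of the 8 libraries (up to 0.176), without the trend, with no filter on low values, with quantile normalisation and with only the 2 groups in the fit.

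HSPA5, HSP90B1 and HYOU1 were not called in any comparison. HSPA5, the gene of the central ER chaperone BiP, lay between 18652 and 27289. It read 21353 and 25442 (DMSO), 22286 and 27289 (decitabine), 21084 and 22584 (RG3039) and 18652 and 21253 (combination). Both combination libraries lay just below the DMSO pair, and the other groups overlapped it. The log2 fold changes of HSPA5 were 0.08 ± 0.15, -0.10 ± 0.15 and -0.23 ± 0.15 (limma adjusted p = 0.823, 0.765 and 0.324). HSP90B1, the gene of the ER paralogue of HSP90, ran from 20009 to 32076. Its log2 fold changes were 0.16 ± 0.22, 0.08 ± 0.22 and 0.19 ± 0.22. HYOU1, an ER exchange factor and chaperone, read 2873 and 3199 with DMSO and 3603 and 4819 with decitabine, without overlap, and its log2 fold change of 0.46 ± 0.18 did not pass (adjusted p = 0.213).

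The degradation genes were likewise not called. HERPUD1, a membrane protein of the ER degradation complex, lay between 385 and 570.3, and SEL1L, the adaptor of its ubiquitin ligase, between 1352 and 2277. DNAJB9, a co-chaperone of BiP, read 65.1 and 171 (DMSO), 76.7 and 326 (decitabine), 73.4 and 39.9 (RG3039) and 334 and 105 (combination). EDEM1, which marks misfolded glycoproteins, read 462 and 396 (DMSO), 1435 and 357 (decitabine), 817 and 313 (RG3039) and 373 and 298 (combination). For both genes the widest gap within a pair exceeded the largest difference between group means, with standard errors of 0.77 and 0.59 on the log2 scale.

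Set against each other, 8 of 18 ATF4 targets and 1 of 8 ER chaperones were called in at least 1 comparison (44.4% and 12.5%, against 26.6% of all genes), and the medians of both lists lay close together. Of the 18 ATF4 targets, decitabine gave 1 call higher (5.56%, against 2.14% of all genes). RG3039 gave 4 higher and 1 lower (27.8%, against 8.12%), and the combination gave 5 higher and 3 lower (44.4%, against 24.1%). Of the 8 ER chaperones, decitabine and RG3039 gave none and the combination gave 1, lower (12.5%, against 24.1% of all genes). At an unadjusted p under 0.05 there were 2 with decitabine and 1 with RG3039, where 17.9% and 22.8% of all genes passed. The median log2 fold change of the ATF4 targets was 0.21 (decitabine), 0.25 (RG3039) and -0.02 (combination). That of the ER chaperones was 0.31, 0.05 and 0.05, and that of all genes tested was 0.01, -0.00 and 0.04. The difference between both lists was therefore -0.10, 0.20 and -0.06. Each was smaller in size than 0.225, the SD between replicate libraries of the difference of list means in a single library. That SD is for means of levels and is not the error of a difference of medians.

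The ATF4 targets spread further around their median than the ER chaperones did. The interquartile range of their log2 fold changes was 0.85 (decitabine), 1.09 (RG3039) and 1.26 (combination), against 0.46, 0.32 and 0.41 for the ER chaperones, a difference that was not tested. With decitabine all 8 ER chaperone changes were above 0, with none called, where 50.9% of all genes tested lay above 0. These changes ran from 0.04 to 0.74 and share the same DMSO and decitabine libraries, so their signs are not separate observations. In single libraries, the mean log2 level of the ATF4 targets minus that of the ER chaperones, each gene centred on its own mean, was 0.25 and -0.30 (DMSO), -0.03 and -0.33 (decitabine), 0.21 and 0.18 (RG3039) and 0.01 and 0.00 (combination). The DMSO pair spanned nearly the whole range.

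**Figure D3:**
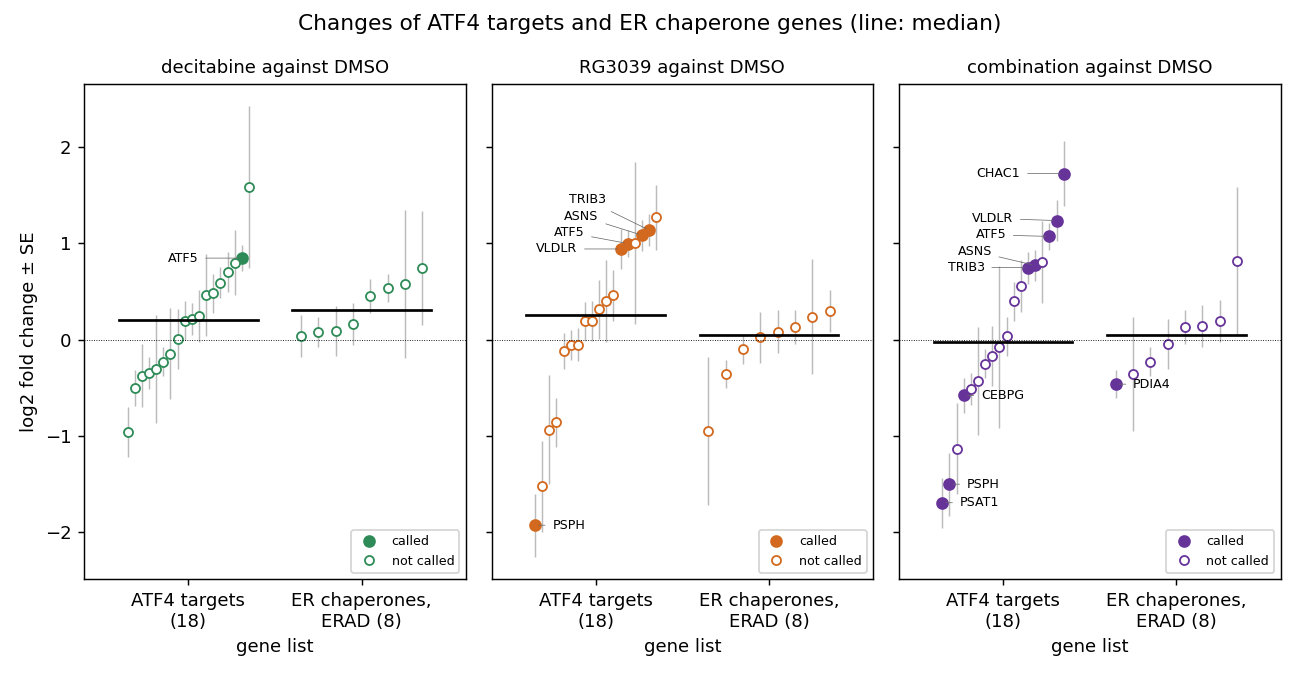
Log2 fold change ± SE against DMSO (vertical axis) of each of the 18 ATF4 targets and 8 ER chaperone genes, in order of size, for each treatment. Filled points passed limma's adjusted p threshold of 0.05 and black lines are medians; called ATF4 targets lie at both ends with the combination, and the medians of both lists stay between -0.02 and 0.31.

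Between the treated groups, the members called were XBP1, PDIA4, PSPH and TRIB3. The combination against decitabine, which adds RG3039 to decitabine, gave 2 members called lower (5.88%) and none higher, against 7.33% of all genes (3.94% higher and 3.39% lower). PDIA4 was lower (log2 fold change -1.0 ± 0.15, limma adjusted p = 0.00494), a call lost without combination replicate 2 (0.0513). XBP1 was also lower (-1.12 ± 0.17, limma adjusted p = 0.00616), a call lost without either combination library or decitabine replicate 1 (up to 0.0543) and without the trend. The combination against RG3039, which adds decitabine to RG3039, gave no member called, against 2.28% of all genes (1.49% higher and 0.787% lower). In that comparison 6 members had an unadjusted p under 0.05, which is 17.6% of them against 17.8% of all genes, and the smallest adjusted p was 0.129, for PSAT1, at a log2 fold change of -0.83 ± 0.26.

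Decitabine against RG3039 gave 3 members called higher with decitabine and 1 lower (11.8%), against 4.6% of all genes (2.67% higher and 1.92% lower). PDIA4 was higher with decitabine by 0.90 ± 0.15 (limma adjusted p = 0.00933), XBP1 by 0.95 ± 0.17 (adjusted p = 0.0147) and PSPH by 1.55 ± 0.33 (adjusted p = 0.0289). TRIB3 was lower with decitabine (-0.92 ± 0.17, adjusted p = 0.0147). Each of these 4 calls was lost without at least 1 of the decitabine or RG3039 libraries. The highest adjusted p was 0.0755 for PDIA4 (lost without RG3039 replicate 2 or either decitabine library), 0.106 for XBP1 (RG3039 replicate 2 or decitabine replicate 1), 0.148 for PSPH (the same libraries as PDIA4) and 0.0930 for TRIB3 (any of the 4). None was called without the trend. The medians of both lists differed most here, at -0.16 for the ATF4 targets and 0.25 for the ER chaperones, a difference of -0.42. Its size exceeds the SD of 0.225 between replicate libraries, which is that of list means and not of medians. The corresponding differences were 0.14 for the combination against decitabine and 0.04 for the combination against RG3039.

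The interaction asks whether both drugs together gave more or less than the sum of their single changes on the log2 scale. It called none of the 34 members and none of all genes tested (0%) by limma, the only tool run for it. At an unadjusted p under 0.05 there were 6 members (17.6%), and 1014 of all genes tested (5.78%). The smallest adjusted p was 0.716 among the members and 0.124 among all genes. Of the members, 23 had an interaction below 0 and 11 above, where 49.1% of all genes tested lay above 0. The members share the same libraries, so their signs are not separate observations. The median standard error of an interaction was 0.46. Estimates among the members ran from -2.67 to 1.19. For ASNS the estimate was -0.91 ± 0.23, for ERN1 -1.01 ± 0.33, for ATF5 -0.77 ± 0.19 and for PSPH 0.80 ± 0.46, none of them called.

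Beyond the 34 members, further genes of both pathways were read from lists written by function. Of 28 other ATF4 and amino acid response genes tested (of 31 listed), none was called with decitabine, 4 were higher with RG3039 (14.3%, against 8.12% of all genes), and 4 were higher and 8 lower with the combination (42.9%, against 24.1%). BBC3, the gene of the death factor PUMA, read 612 and 561 (DMSO), 495 and 572 (decitabine), 1568 and 1499 (RG3039) and 1494 and 1398 (combination). All 4 libraries with RG3039 lay well above the rest, with a log2 fold change of 1.39 ± 0.17 for RG3039 (limma adjusted p = 0.0014) and 1.30 ± 0.17 for the combination (adjusted p = 0.000682), both kept without each library.

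SLC7A11, the cystine importer, read 671 and 651 (DMSO), 1232 and 975 (decitabine), 1882 and 1601 (RG3039) and 1473 and 1335 (combination). It was lowest in both DMSO libraries and rose by 1.39 ± 0.18 with RG3039 (limma adjusted p = 0.00194) and 1.08 ± 0.18 with the combination (adjusted p = 0.00235), both kept without each library. SESN2, an inhibitor of mTORC1 under amino acid shortage, read 318 and 315 with DMSO and 618 and 555 with the combination and rose there by 0.88 ± 0.19 (adjusted p = 0.00858), lost without combination replicate 1 (0.0725). SESN2 was also called higher with RG3039 (limma adjusted p = 0.0388), a call lost without each of the 8 libraries. It was higher with the combination than with decitabine (limma adjusted p = 0.0275), a call lost without any combination or decitabine library. ATF3, a stress-induced transcription factor, read 26.2 and 49.6 (DMSO), 69.0 and 81.6 (decitabine), 38.5 and 59.1 (RG3039) and 157 and 152 (combination). ATF3 was highest in both combination libraries and rose there by 2.07 ± 0.43 (adjusted p = 0.00746), lost without combination replicate 1 (0.0544).

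Other genes of the same list fell, among them a proline synthesis gene and a transporter gene. ALDH18A1, the first enzyme of proline synthesis, read 1361 and 1549 (DMSO), 1245 and 745 (decitabine), 939.7 and 554 (RG3039) and 352 and 369 (combination). The combination pair lay below the other 6 libraries, and ALDH18A1 fell (log2 fold change -2.01 ± 0.29, limma adjusted p = 0.00135). SLC7A1, an importer of cationic amino acids, read 3475 and 5135 with DMSO and 1661 and 1989 with the combination and fell (log2 fold change -1.22 ± 0.20, adjusted p = 0.00218). Both calls were kept without each library.

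Of 36 other ER chaperone, folding and degradation genes tested (of 38 listed), 1 was higher with decitabine (2.78%, against 2.14% of all genes), 2 were lower with RG3039 (5.56%, against 8.12%), and 1 was higher and 6 were lower with the combination (19.4%, against 24.1%). These shares lie near or below those of all genes. The ER stress element was present in 5 of 32 genes of this list with a window (15.6%), against 0.0769% of all windows. These were CALR, CANX, CRELD2, ERO1B and PDIA6. CALR and CRELD2 are shown with their promoters because they moved in opposite directions with the combination. With decitabine, both libraries of each of these genes lay above both DMSO libraries. The RefSeq stretches (GRCh38.p14, gene strand, match in capitals, read on the opposite strand) are as follows.
CALR, chr19:12938359-12938427, plus strand, match starting at -225: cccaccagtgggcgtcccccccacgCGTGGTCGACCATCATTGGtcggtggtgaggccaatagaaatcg
CRELD2, chr22:49918529-49918597, plus strand, match starting at -80: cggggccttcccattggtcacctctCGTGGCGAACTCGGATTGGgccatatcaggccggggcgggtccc

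CALR, the calcium-binding glycoprotein chaperone calreticulin, read 44067 and 32742 (DMSO), 58227 and 58473 (decitabine), 31363 and 26159 (RG3039) and 20025 and 19037 (combination). Decitabine gave the highest pair and the combination the lowest. CALR fell with the combination (log2 fold change -0.96 ± 0.16, limma adjusted p = 0.00286) and was lower with the combination than with decitabine (-1.58 ± 0.16, adjusted p = 0.00128), both kept without each library. CRELD2, a secreted ER stress protein, read 686 and 691 (DMSO), 1212 and 1388 (decitabine), 978 and 887 (RG3039) and 1386 and 1361 (combination). It was lowest with DMSO and rose by 1.00 ± 0.16 with the combination (adjusted p = 0.00214), kept without each library. With decitabine it rose by 0.91 ± 0.16 (adjusted p = 0.0236), lost without DMSO replicate 2 or any decitabine or combination library (up to 0.133), without the trend, and with only the 2 groups in the fit.

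TXNDC5, a thioredoxin-type isomerase of the ER, read 3456 and 2980.1 with DMSO and 1189 and 1147 with the combination and fell (log2 fold change -1.46 ± 0.20, limma adjusted p = 0.000906), kept without each library. ERO1B, an oxidase that recharges the isomerases, read 132 and 169 (DMSO), 244 and 214 (decitabine), 32.3 and 14.9 (RG3039) and 38.1 and 100.3 (combination). All 4 libraries with RG3039 were below the rest. ERO1B fell with RG3039 (log2 fold change -2.71 ± 0.52, adjusted p = 0.0131), lost without DMSO replicate 2 or RG3039 replicate 2 (up to 0.0896), without the trend, and with only the 2 groups in the fit. EDEM3, a relative of EDEM1, read 1517 and 1868 with DMSO and 1035 and 1018 with RG3039 and fell (log2 fold change -0.71 ± 0.16, adjusted p = 0.028), lost without DMSO replicate 2 or any RG3039 or combination library (up to 0.141), without the trend, and with only the 2 groups in the fit.

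Of 32 other genes of eIF2 kinases, eIF2B and unfolded protein signalling tested (of 33 listed), none was called with decitabine, 1 was higher with RG3039 (3.12%, against 8.12% of all genes), and 5 were higher and 6 lower with the combination (34.4%, against 24.1%). EIF2B1, a subunit of the exchange factor that eIF2 phosphorylation inhibits, read 1075 and 1189 (DMSO), 885 and 853 (decitabine), 1001 and 819 (RG3039) and 416 and 443 (combination). Its combination pair was far below the other 6 libraries. EIF2B1 fell against DMSO (log2 fold change -1.39 ± 0.18, limma adjusted p = 0.00066), kept without each library. Against RG3039 it was lower as well (log2 fold change -1.07 ± 0.18, adjusted p = 0.0181), lost without RG3039 replicate 1 or either combination library (up to 0.170) and without the trend.

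EIF2B5, the catalytic subunit of the same complex, read 1977 and 2909 with DMSO and 1142 and 1284 with the combination and fell (log2 fold change -0.99 ± 0.20, limma adjusted p = 0.00682), lost without combination replicate 1 (0.0576). PPP1CC, a catalytic subunit of the phosphatase that PPP1R15A and PPP1R15B direct, read 3246 and 3733 and 2379.8 and 2201 in these groups and fell (log2 fold change -0.60 ± 0.14, adjusted p = 0.0143), lost without DMSO replicate 2 or either combination library (up to 0.0949) and without the trend. CEBPB, a C/EBP factor also used in myeloid maturation, read 959 and 833 (DMSO), 1138 and 827 (decitabine), 1909 and 1612 (RG3039) and 1801 and 1957 (combination). The 4 libraries with RG3039 lay above the 4 without.

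CEBPB rose by 0.97 ± 0.19 with RG3039 (limma adjusted p = 0.0161), lost without DMSO replicate 2 or either RG3039 library (up to 0.116), without the trend and with only the 2 groups in the fit, and by 1.07 ± 0.19 with the combination (adjusted p = 0.00396), kept without each library. CREB3L1, an ER-bound transcription factor, read 15.7 and 25.6 with DMSO and 87.6 and 83.0 with the combination and rose by 2.04 ± 0.46 (adjusted p = 0.0113), lost without DMSO replicate 1 or either combination library (up to 0.0735). ATF6, the remaining ER sensor, lay between 1914 and 2604 in the 8 libraries and was not called.

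**Figure D4:**
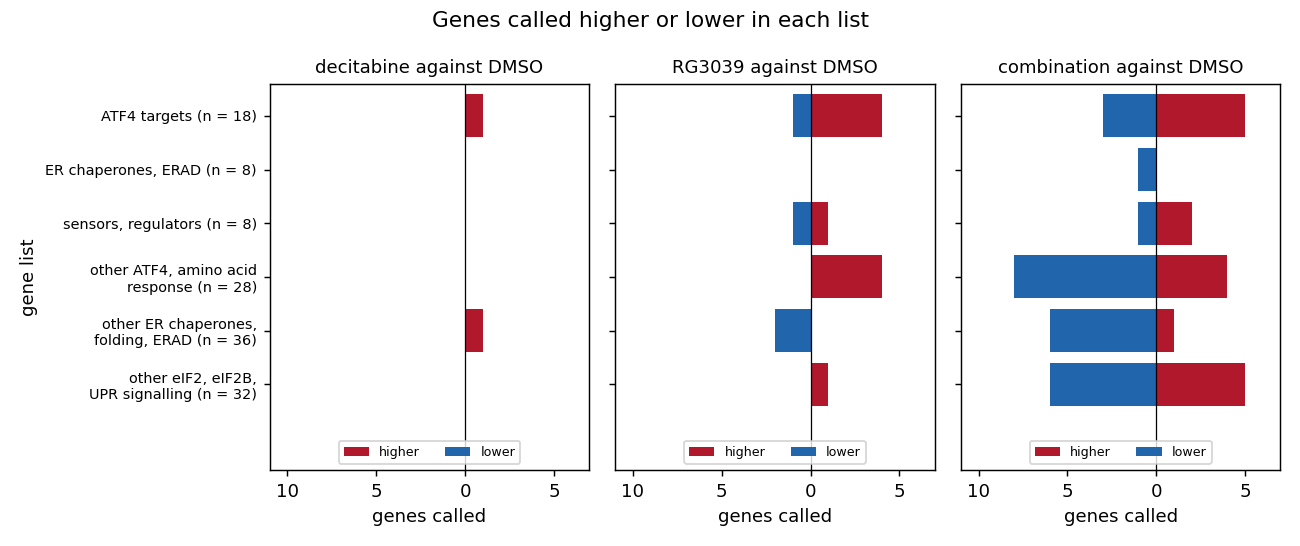
Number of genes called higher (right of 0) or lower (left of 0) against DMSO in each of the 6 gene lists (vertical axis), by treatment. The ATF4-related lists had calls in both directions with the combination, and the ER chaperone lists had mostly calls lower there.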

How the data were processed

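The 8 libraries of HL-60 RNA were made with the QuantSeq 3′ FWD kit and sequenced single-end, per the labels' protocols. Per gene, the authors deposited a normalised count, which is a signal and not a raw count. The submitters' processing notes name Salmon 1.2.1, STAR, featureCounts, DESeq2, limma and hg38 without saying which step made them. Values of at most 20.5 reads fell on multiples of 1 step per library, within 0.02, for 74.4% to 80.8% of genes and for 97.5% to 98.1% of genes with 1 transcript, so raw reads could be rebuilt in part only, and count models were left out. This step (0.702 to 1.51) gave the depth estimate. Such 3′ tags count transcript ends, so levels were not compared between genes.

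Genes with a mean of at least 10 (17534) were fitted as log2(value + 1) in R 4.3.3 by limma 3.58.1 (lmFit, contrasts.fit, eBayes with trend). The fit took all 8 libraries and 1 mean per group, with 4 residual and 5.51 prior degrees of freedom. Tests were two-sided and adjusted by Benjamini-Hochberg over all genes within each of 7 contrasts. The interaction was (combination - decitabine) - (RG3039 - DMSO). The members, lists and motifs were chosen with earlier results of these data known, and lists were described by counts and medians without a test. All members are reported, and of each further list up to 5 called genes with the smallest p against DMSO, plus ATF3, ATF6 and SESN2. Only the test of RG3039 against DMSO was run on simulated data, with noise drawn independently for each gene, and its outcome is not given here. Tables and plots used Python 3.11.15, pandas 2.3.3, numpy 2.4.6 and matplotlib 3.10.9. Alternatives were another pseudocount or filter, TMM or quantile scaling, eBayes robust or without trend, only the groups compared, the replicate block, and leaving out each library.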

Additional observations from a re-analysis of the deposited data

How the results depend on the processing

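Under 18 alternative settings no called gene named here changed direction, and 8 of the 26 calls among the 34 members were kept without each of the 8 libraries in turn: TRIB3, ASNS, ATF5 and XBP1 with RG3039, and PSAT1, ATF5, VLDLR and XBP1 with the combination. Among the members, standard errors were widest for STC2, DNAJB9, EDEM1 and CTH (0.84, 0.77, 0.59 and 0.56 on the log2 scale), and the size of change that would be detected in them was not tested. When a group was left with 1 library, that library was assumed to vary like the other groups. The cause of each loss was not tested.

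Without the mean-variance trend, genes called numbered 210 with decitabine, 718 with RG3039, 432 for the combination against decitabine, 147 for the combination against RG3039 and 427 for decitabine against RG3039, where the values as reported were 376, 1424, 1286, 399 and 806. Members called were then 0, 6, 1, 0 and 0. With no filter on low values, 225 genes were called with decitabine and 213 for the combination against RG3039. With only the groups compared in the fit, 105 genes and 0 members were called with decitabine, 481 and 4 with RG3039, and 408 and 2 for decitabine against RG3039.

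With the replicate number as a block, 688 genes and 0 members were called for the combination against RG3039, and members called in the other comparisons stayed at 1 with decitabine, 7 with RG3039, 12 with the combination, 2 for the combination against decitabine, 4 for decitabine against RG3039 and 0 for the interaction. Genes called were then 525 with decitabine, 1690 with RG3039, 4619 with the combination, 1678 for the combination against decitabine and 973 for decitabine against RG3039. Each is above the number without the block. The labels name no shared batch. Libraries with the same number deviated together with correlations of 0.0513, 0.117, 0.161, 0.0490, -0.0767 and 0.103 over the 6 pairs of groups. Such correlations cannot tell whether these libraries shared a batch, which was not tested.

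Leaving out 1 library at a time, genes called ranged from 79 to 495 with decitabine, 496 to 1263 with RG3039, 2133 to 4075 with the combination, 305 to 1391 for the combination against decitabine, 21 to 454 for the combination against RG3039, 283 to 887 for decitabine against RG3039 and 0 to 2 for the interaction. Members called ranged from 0 to 2, 5 to 7, 4 to 10, 0 to 2, 0 to 0, 0 to 4 and 0 to 0 in the same order. The difference of medians between ATF4 targets and ER chaperones ranged from -0.52 to 0.37, -0.14 to 0.55 and -0.22 to 0.43 against DMSO. For the rest, in the same order, it ranged from -0.020 to 0.43, -0.23 to 0.15, -0.63 to -0.25 and -0.18 to 0.20. Only that for decitabine against RG3039, the largest in size with all libraries, kept its sign. Leaving out a DMSO or combination library cannot change that difference, so those omissions do not test it.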
